A study of Bos taurus with 32 samples.

Results

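The 5 bovine miRNAs bta-miR-1281, bta-miR-940, bta-miR-423-5p, bta-miR-2286 and bta-miR-2288 were followed on a customized Agilent array that held 13440 miRNA spots, 20 for each of its miRNAs. They were chosen by name from the 91 miRNAs detected on all 32 arrays. The rule asked for a large fall on the high fat diet after scaling between arrays, with little change in unscaled signal. The choice used the diet difference in unscaled and scaled signal, so that difference is given below as a description, with no test. The working name of the set was bright miRNAs unchanged in absolute signal, and the data went against the first word. Ranked from the dimmest of the 91 by mean log2 signal, bta-miR-940 was 1, bta-miR-1281 was 5, bta-miR-2286 was 7, bta-miR-2288 was 21 and bta-miR-423-5p was 44. All 5 lay below the median signal of the 91 miRNAs, an intensity of 163.5. The word unchanged did not hold throughout either. In visceral fat the geometric mean of the unscaled signal in high fat steers was 51.4% (bta-miR-2288), 56.7% (bta-miR-423-5p) and 65.4% (bta-miR-940) of that in control steers. In subcutaneous fat that of bta-miR-940 was 66.5%, and the groups overlapped in each case. The total of bta-miR-940 did not hold the same probes on every array, as described below. With all its probes added, it was at 80.2% in subcutaneous and 80.1% in visceral fat.

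Fat was taken at slaughter from 16 Hereford and Aberdeen Angus crossbred steers, 8 on a control diet and 8 on a high fat diet whose fat content had been raised with flaxseed. Each steer gave backfat as subcutaneous fat and perirenal fat as visceral fat, which made 4 groups of 8 arrays, 1 array for each sample. The same amount of total RNA per sample was labelled with a single dye (Cy3) together with spike-in RNAs of the labelling kit, of which dmr_285 and dmr_31a are used here. The high fat diet was a finishing diet given to whole animals for some weeks, it differed from the control diet in flaxseed and not in fat alone, and whole tissue was homogenized, so a smaller share of a cell type and less RNA per cell cannot be told apart.

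MicroRNAs are short RNAs that are cut from a hairpin precursor and, bound to an Argonaute protein, repress messenger RNAs that pair with their seed. In adipose tissue several of them are known to promote or hold back the differentiation of preadipocytes into adipocytes. On an array of this kind the intensity of a miRNA depends on the amount of the RNA, on how well its end takes up the dye and on how well it binds its probes, so intensities of different miRNAs do not order their amounts.

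Of the 5, miR-423-5p is the best known. It is one arm of the miR-423 precursor, is found in most tissues and in blood, and has been followed as a circulating marker of heart failure. MiR-940 is a miRNA studied mostly in human tumors. In the RefSeq annotation of the cattle assembly ARS-UCD2.0, all 5 precursors had a gene entry. MIR423 overlapped the protein-coding gene NSRP1, which encodes a splicing regulator. MIR2288 overlapped CPNE4, a gene of the copines, which bind membrane lipids in the presence of calcium. MIR2286 overlapped 2 long noncoding RNA genes, LOC112446991 and LOC100848469. MIR1281 overlapped no gene and neighbored EP300, which encodes a histone acetyltransferase. MIR940 lay between RNPS1 and ABCA3 and overlapped neither. The other arm of the miR-423 precursor, bta-miR-423-3p, was detected on 6 of the 32 arrays.

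The arrays of the 2 diets differed as a whole. Summed over every miRNA, control arrays reached 26021 to 79290 and high fat arrays 96888 to 366714, while dmr_285 was 4272 to 7851 and 3799 to 5782, and dmr_31a 1823 to 3313 and 717 to 2250. The 3 lowest dmr_31a signals belonged to the high fat visceral arrays of steers 303, 411 and 412. Each group had a slide of its own and each diet a scanning session of its own, so slide and group, and session and diet, cannot be told apart. All arrays detected 3 of 4 adipose markers (bta-miR-27b, bta-miR-103 and bta-miR-378). The summed signal of the 4 adipose markers was 154 to 1174 on control arrays and 2413 to 8207 on high fat arrays. That of other cell types was also mostly higher on the high fat arrays, as was the signal of the array as a whole. For 3 leukocyte miRNAs the sum was 16.8 to 80.0 on control arrays and 141 to 1228 on high fat arrays. For 4 skeletal muscle miRNAs it was 0 to 25.7 and 23.5 to 302.7. Bta-miR-142 was detected on no control array and on all high fat arrays. Not every marker followed its list. Leukocyte bta-miR-150 was detected on 1 high fat subcutaneous array alone. Muscle bta-miR-206 was detected on 1 subcutaneous array of each diet and 1 control visceral array. The part of these markers in the results was not tested. The subcutaneous array of control steer 108 had a bta-miR-196a intensity of 46.7, against at most 4.93 on the other arrays of its group and 30.7 to 73.3 in control visceral fat, so it stood apart from its labelled depot.

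The 5 miRNAs carried a small and unequal part of the array signal. Bta-miR-423-5p had the largest median share, 0.398% of the summed signal in control steers and 0.0651% in high fat steers. The smallest was that of bta-miR-940, with 0.0310% and 0.00330%. The error that Feature Extraction gives for the total of a miRNA had a median of 7.84% for bta-miR-423-5p in control steers and 24.0% for bta-miR-940 in high fat steers. Of the 20 spots of a miRNA, all were well above background for bta-miR-423-5p on every array, whereas for bta-miR-940 the median was 10 in control and 3.5 in high fat steers. The lowest intensity that an array called detected had a median of 2.61, so bta-miR-940 was measured close to the limit of detection and bta-miR-423-5p far above it.

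The unscaled signal, the total intensity of a miRNA with no adjustment between arrays, was close to the same on both diets for bta-miR-1281. In subcutaneous fat its lowest, median and highest intensities were 13.9, 19.9 and 24.6 in control steers and 14.2, 17.1 and 20.3 in high fat steers. In visceral fat they were 17.8, 18.8 and 24.8 in control steers and 17.3, 18.8 and 19.3 in high fat steers. All 4 groups overlapped, and the mean log2 difference, high fat minus control, was -0.13 in subcutaneous and -0.12 in visceral fat (pooled SD 0.22 and 0.14, n = 8 in each group).

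Bta-miR-940 was dimmer on the high fat diet in both depots. Its lowest, median and highest intensities in subcutaneous fat were 5.58, 12.5 and 14.4 in control steers and 5.71, 6.61 and 7.88 in high fat steers. Those in visceral fat were 7.31, 11.8 and 15.4 in control steers and 6.26, 6.85 and 9.23 in high fat steers. The ranges overlapped because some control arrays were as dim as the high fat arrays, and in visceral fat 5 of the 8 high fat arrays lay below every control array. The mean log2 difference was -0.59 in subcutaneous fat (pooled SD 0.41) and -0.61 in visceral fat (pooled SD 0.34).

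Bta-miR-423-5p, the brightest of the 5, differed between depots in its direction. In subcutaneous fat it ran from 98.6 over a median of 116 to 236 in control steers and from 111 over 153 to 250 in high fat steers. In visceral fat it ran from 111 over 188 to 266 in control steers and from 48.9 over 109 to 204 in high fat steers. The subcutaneous groups covered nearly the same range, and 4 of the 8 high fat visceral arrays lay below every control visceral array. The mean log2 differences were 0.15 and -0.82 (pooled SD 0.43 and 0.57).

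Bta-miR-2286 was the one of the 5 whose depots were further apart than its diets. Its subcutaneous intensities were 14.0, 34.8 and 51.8 (lowest, median and highest) in control steers and 23.3, 25.1 and 35.1 in high fat steers. Its visceral intensities were 8.75, 19.1 and 27.7 in control steers and 5.59, 15.2 and 24.1 in high fat steers. In subcutaneous fat the high fat arrays lay inside the range of the control arrays, and in visceral fat only 1 of 8 lay below every control array. The mean log2 differences between diets were -0.21 and -0.36 (pooled SD 0.46 and 0.56).

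Bta-miR-2288 had the lowest diet difference of all 91 miRNAs in visceral fat. Its subcutaneous intensities were 41.6, 54.9 and 81.7 in control steers and 35.7, 56.6 and 110 in high fat steers. Its visceral intensities were 53.2, 64.0 and 107 in control steers and 18.0, 32.1 and 77.2 in high fat steers. Medians were alike in subcutaneous fat, and in visceral fat 6 of 8 high fat arrays lay below every control array. The mean log2 differences were 0.06 and -0.96 (pooled SD 0.40 and 0.54). The latter is a geometric mean in high fat steers of 51.4% of that in control steers. The visceral differences leaned on the 3 arrays of low dmr_31a signal (steers 303, 411 and 412), which held the 3 lowest intensities of bta-miR-423-5p (84.0, 65.7 and 48.9), of bta-miR-2288 (25.6, 26.3 and 18.0) and of bta-miR-2286 in their group. Without them the visceral differences were -0.40 for bta-miR-423-5p, -0.59 for bta-miR-2288 and -0.014 for bta-miR-2286, against -0.60 for bta-miR-940 and -0.11 for bta-miR-1281, which hardly moved. These arrays were chosen after the values were seen.

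**Figure D1:**
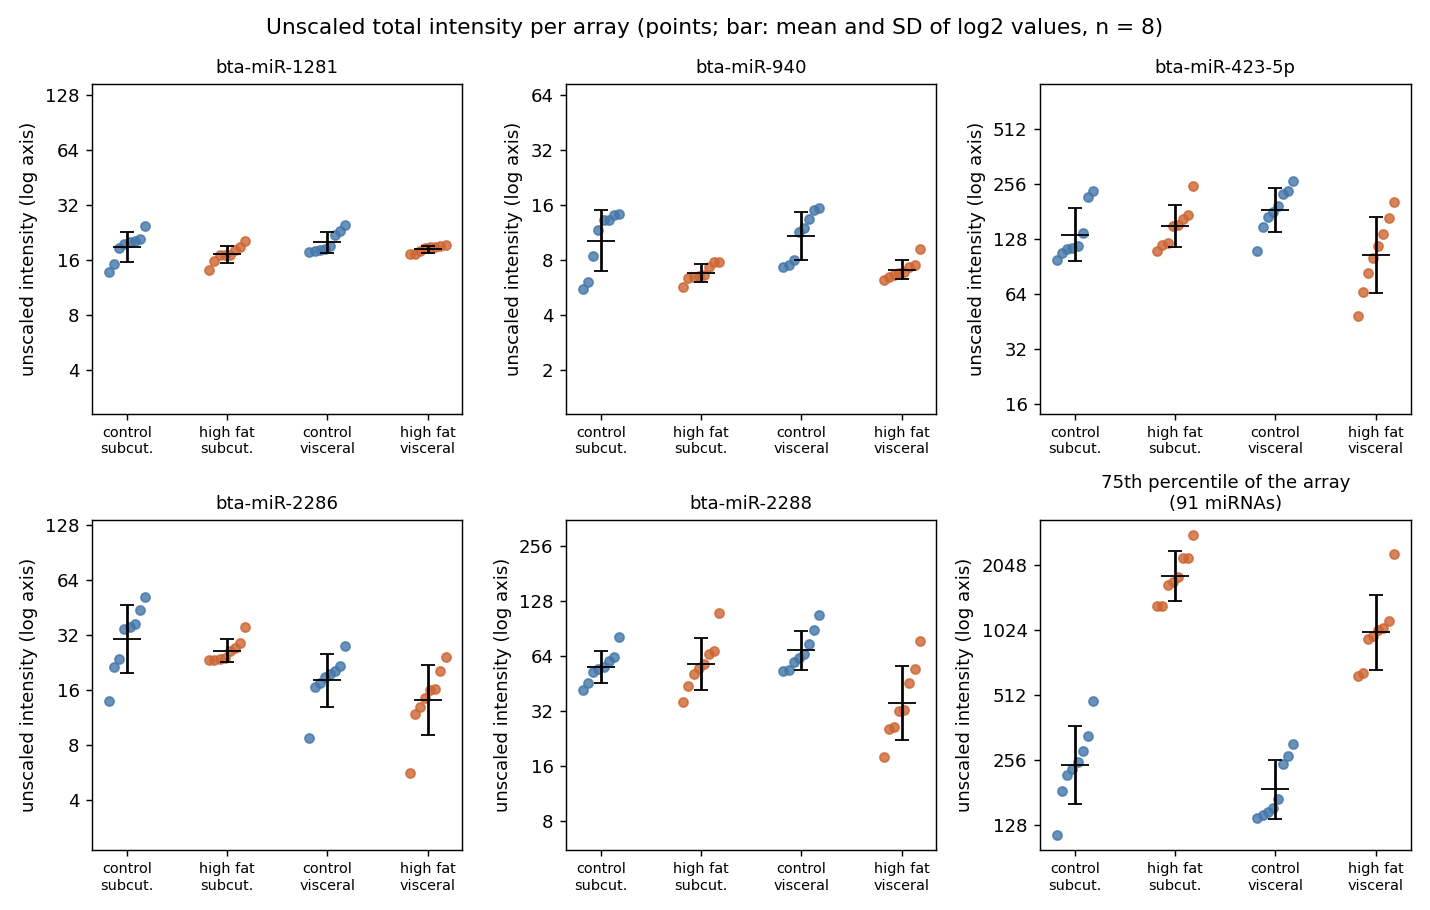
Unscaled total intensity of the 5 miRNAs on each of the 32 arrays (log axis; 1 point for each array, black bars for the mean and SD of the log2 values, n = 8), beside each array's 75th percentile, taken over the 91 miRNAs detected everywhere. Control arrays had a percentile of 115 to 480 and high fat arrays one of 626 to 2823, with no overlap, whereas each of the 5 miRNAs overlapped between diets.

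These differences stood at the low end of the array. Over the 91 miRNAs the median unscaled difference was 2.01 in subcutaneous and 1.63 in visceral fat, and 7 and 17 of the 91 (7.69% and 18.7%) had a mean difference below 0. For the 5 miRNAs the counts were 3 in subcutaneous and 5 in visceral fat, which the choice of the miRNAs fixed. With the difference averaged over depots, they held 5 of the 7 lowest places, with bta-miR-665 (-0.37) and bta-let-7b (-0.27) among them as the other 2. The averages of the 5 were -0.60 for bta-miR-940, -0.45 for bta-miR-2288, -0.33 for bta-miR-423-5p, -0.28 for bta-miR-2286 and -0.13 for bta-miR-1281. The rule named no threshold. The next in order, just outside the 5, was bta-let-7c with -0.09. In absolute size, 18 miRNAs outside the set had an average no further from 0 than that of bta-miR-940, and bta-miR-2382* and bta-miR-1225-3p, the 2 nearest to 0, had subcutaneous and visceral differences of -0.03 and -0.06, and of 0.09 and 0.02. Small unscaled change was thus not a property of the 5 alone. Averaged over depots it was not limited to dim miRNAs either, since bta-let-7b was the brightest of the 91. That average joined differences of opposite sign, 0.16 in subcutaneous and -0.70 in visceral fat.

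**Figure D2:**
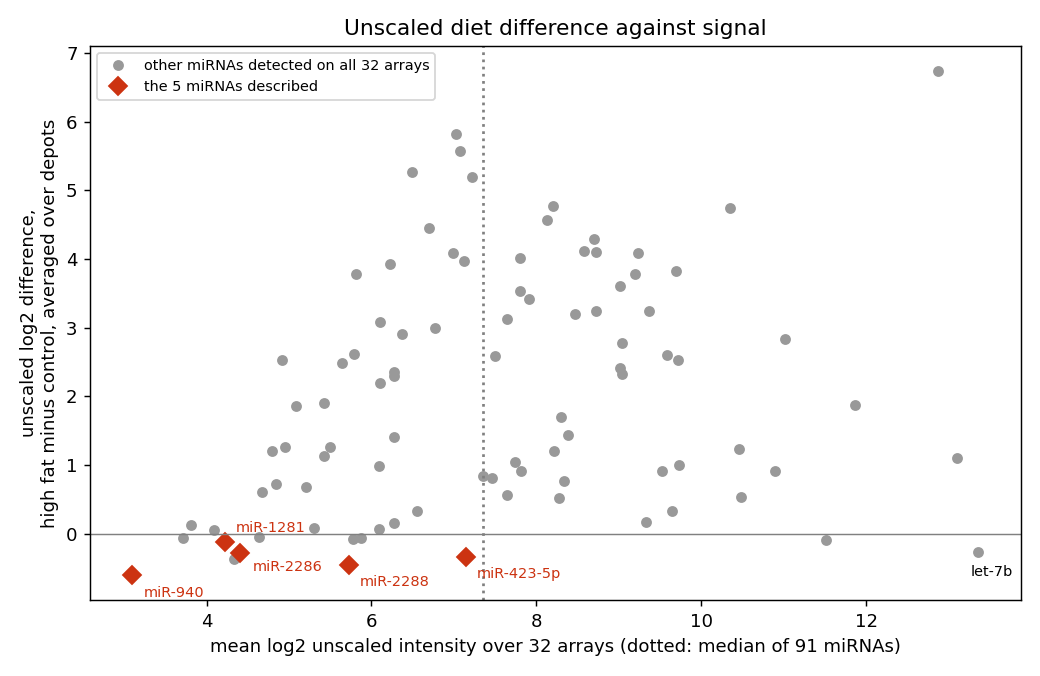
Unscaled log2 difference between diets, averaged over depots, against the mean log2 intensity over 32 arrays for the 91 miRNAs detected on all of them (red diamonds, the 5 miRNAs described; grey, the others; dotted line, median intensity). The 5 lie left of the median intensity and below a difference of 0, with bta-let-7b at the far right.

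The intensity of a miRNA is the sum over its probes, 3 for bta-miR-2288 and 2 for each of the others, and a comparison with the single probes showed that Feature Extraction did not add all of them on every array. On each array 1 set of probes summed to the deposited total within 0.01%. For bta-miR-1281 and bta-miR-423-5p all probes were in the total on all 32 arrays. For bta-miR-940 both probes were in it on 10 of 16 control arrays and on 0 of 16 high fat arrays, where the total was the brighter probe alone. For bta-miR-2286 both were in it on 5 of the 8 control subcutaneous arrays and on no other array. For bta-miR-2288 all 3 were in it on 6 control arrays and 1 high fat array, and on 5 high fat visceral arrays the total was 1 probe alone.

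The 2 levels of bta-miR-940 in control steers followed this count. The 6 control arrays with 1 probe in the total had intensities of 5.58 to 8.47, the 10 with both had 11.5 to 15.4, and the 16 high fat arrays had 5.71 to 9.23. The brighter probe by itself had a lowest, median and highest intensity in subcutaneous fat of 5.58, 8.36 and 9.22 in control and 5.71, 6.61 and 7.88 in high fat steers. In visceral fat these were 7.31, 8.04 and 10.2 in control and 6.26, 6.85 and 9.23 in high fat steers. The brighter probe had log2 differences of -0.17 (subcutaneous) and -0.24 (visceral), less than the total in both. The dimmer probe was also lower in high fat steers, with medians of 4.60 and 3.01 in subcutaneous and 4.15 and 2.76 in visceral fat.

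With all probes of a miRNA added on every array, the diet difference of bta-miR-940 was -0.32 in subcutaneous and -0.32 in visceral fat, in place of -0.59 and -0.61. Those of bta-miR-2286 were -0.18 and -0.51, and those of bta-miR-2288 were 0.07 and -0.86. Those of bta-miR-1281 and bta-miR-423-5p stayed at -0.13 and -0.12, and 0.15 and -0.82. The dimmer probe of bta-miR-2286 was above 0 on 25 arrays only. It went down to -1.55, with a median of -0.19 in high fat visceral fat, so adding it lowered the sum on some arrays. The groups overlapped for all 5 in both depots. For bta-miR-940 the sum of both probes was nonetheless below every control array on 7 of 8 high fat visceral arrays, and on 2 of 8 in subcutaneous fat. Adding all probes was chosen after the values were seen.

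**Figure D3:**
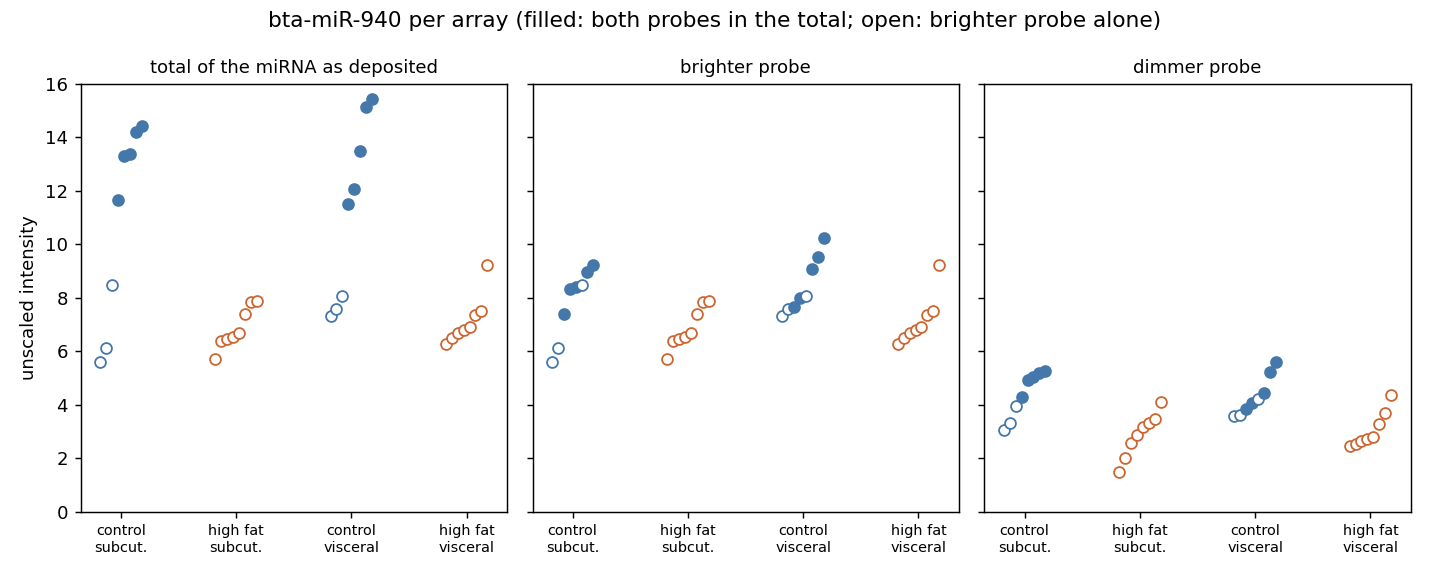
Intensity of bta-miR-940 on each array by group, for the deposited total and for its brighter and dimmer probe (linear axis from 0; filled points, both probes in the total; open points, brighter probe alone). The total splits the control arrays into levels of 5.58 to 8.47 and 11.5 to 15.4, a gap that neither probe shows by itself.

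Scaling to the spike-ins left the log2 differences of the 5 miRNAs between -0.51 and 0.41. Scaling to a percentile of the array moved all of them far below 0. The factor of the spike-in scaling, the mean log2 intensity of dmr_285 and dmr_31a, differed between diets by -0.25 in subcutaneous fat and by -0.45 in visceral fat. Within it, dmr_285 differed by -0.20 and -0.14 and dmr_31a by -0.30 and -0.77, so in visceral fat the spike-ins did not move together. The 75th percentile over the 91 miRNAs was higher in high fat steers by 2.91 and 2.42, or 7.53-fold and 5.36-fold. Each array-wise scaling subtracts 1 number per array, so it shifts the mean difference of all 91 miRNAs alike and leaves their order as it was.

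After spike-in scaling the log2 differences in subcutaneous and visceral fat were 0.12 and 0.33 for bta-miR-1281, -0.34 and -0.16 for bta-miR-940, and 0.41 and -0.37 for bta-miR-423-5p. They were 0.04 and 0.10 for bta-miR-2286 and 0.31 and -0.51 for bta-miR-2288. The signs of bta-miR-1281 and bta-miR-2286 turned from negative to positive between the unscaled and the spike-in scaled values. Groups overlapped for 5 of 5 in both depots, and the median over the 91 miRNAs was 2.26 and 2.08.

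After percentile scaling the same differences were -3.05 and -2.54 for bta-miR-1281, -3.50 and -3.04 for bta-miR-940, and -2.76 and -3.24 for bta-miR-423-5p. They were -3.12 and -2.78 for bta-miR-2286 and -2.86 and -3.38 for bta-miR-2288. In each depot every high fat array lay below every control array for 5 of 5, as held for 44.0% of the 91 miRNAs in subcutaneous and 41.8% in visceral fat, whose median differences were -0.91 and -0.80. As scaled intensities, these are levels in control steers that were between 5.83-fold (bta-miR-1281 in visceral fat) and 11.3-fold (bta-miR-940 in subcutaneous fat) those in high fat steers.

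The scaled levels themselves, as log2 of the ratio to the array's 75th percentile, put both control groups above both high fat groups for all 5. For bta-miR-423-5p the lowest, median and highest levels were -1.27, -0.98 and -0.02 in control subcutaneous fat, -0.63, 0.03 and 0.70 in control visceral fat, -3.76, -3.57 and -3.47 in high fat subcutaneous fat, and -3.83, -3.24 and -2.51 in high fat visceral fat. The 8 high fat subcutaneous arrays of bta-miR-423-5p had an SD of 0.12, against 0.38 unscaled. For bta-miR-1281 the corresponding levels were -4.56, -3.55 and -2.91, then -4.06, -3.02 and -2.93, then -7.37, -6.62 and -6.28, and last -6.93, -5.73 and -5.08. Its SD in high fat visceral fat was 0.56 after scaling and 0.07 before. The spread did not move one way by miRNA, since the SD of bta-miR-423-5p in control visceral fat was 0.47 after scaling and 0.41 before.

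A table of log2 values from GeneSpring was deposited as well. In it the log2 intensity was shifted on 18 arrays, by up to 5.05, and not on the others. Control medians of bta-miR-1281 were 4.26 (subcutaneous) and 4.23 (visceral) there, against 4.32 and 4.23 unscaled. Its high fat medians were 0 and 0.38 there, against 4.10 and 4.23 unscaled. The fall was larger than after percentile scaling for all but bta-miR-940 in subcutaneous fat. The part of the unequal shift in this was not tested. The differences in subcutaneous and visceral fat were -3.93 and -3.51 for bta-miR-1281, -3.05 and -3.19 for bta-miR-940, and -4.16 and -4.31 for bta-miR-423-5p. They were -4.46 and -3.73 for bta-miR-2286 and -4.25 and -4.45 for bta-miR-2288. Again 5 of 5 did not overlap in either depot, as held for 54.9% and 46.2% of the 91 miRNAs. That table lists a value of 0 for bta-miR-940 on 8 high fat subcutaneous and 7 high fat visceral arrays, for bta-miR-1281 on 8 and 1, and for bta-miR-2286 on 3 and 4, although each was called detected there, so these differences are bounded by the 0.

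**Figure D4:**
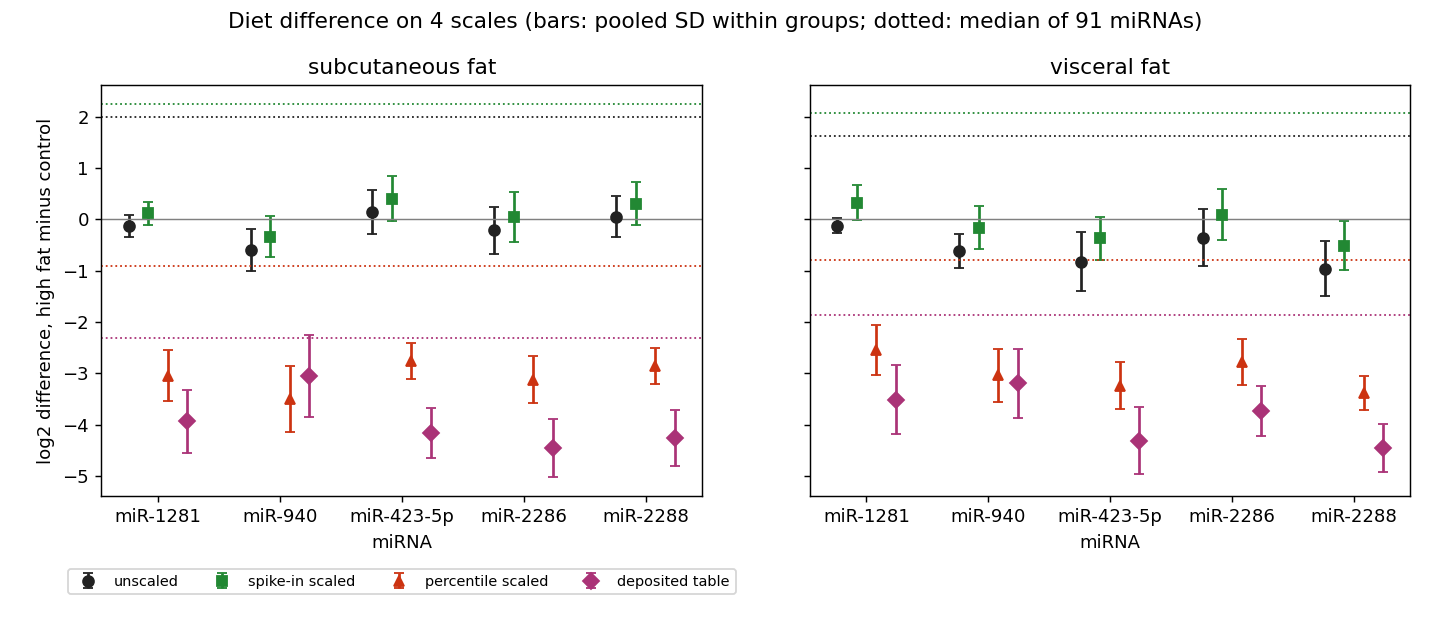
Log2 difference of the 5 miRNAs between diets (high fat minus control) in subcutaneous and visceral fat on 4 scales, with bars for the pooled SD within groups (n = 8) and a dotted line for the median of the 91 miRNAs on the same scale. Unscaled and spike-in scaled values lie between -0.96 and 0.41, percentile-scaled and deposited values between -4.46 and -2.54.

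How far the 5 miRNAs followed the brightness of the array within a group differed by miRNA and by group. Among the high fat visceral arrays the summed signal was highest for steer 302 and lowest for steer 412, with a ratio of 2.95. On these arrays the intensities were 18.8 and 19.2 for bta-miR-1281 and 9.23 and 6.79 for bta-miR-940. They were 204 and 48.9 for bta-miR-423-5p, 24.1 and 5.59 for bta-miR-2286, and 77.2 and 18.0 for bta-miR-2288. The spike-ins were 4888 and 3799 for dmr_285 and 1424 and 717 for dmr_31a. In this group the latter 3 miRNAs changed by more than the summed signal, and bta-miR-1281 by less than either spike-in.

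The other groups gave a different order. In high fat subcutaneous fat the brightest array was that of steer 411 and the dimmest that of steer 109, with a ratio of summed signal of 2.07. Bta-miR-1281 was 17.1 and 17.0 there, bta-miR-940 was 6.46 and 7.88 and bta-miR-2286 was 35.1 and 28.8 (ratio 1.22), while bta-miR-423-5p was 250 and 111 and bta-miR-2288 was 110 and 44.1. Bta-miR-1281 was thus nearly level between these arrays in both high fat groups, but not in the control groups.

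In control steers bta-miR-1281 was 20.4 on the brightest and 15.2 on the dimmest subcutaneous array and 24.8 and 18.1 on the visceral ones, ratios of 1.34 and 1.37, more than those of dmr_285 (1.07 and 1.12) and dmr_31a (0.96 and 1.05). The ratios of the summed signal were 2.74 and 2.16. Bta-miR-423-5p had ratios of 2.08 and 2.40, bta-miR-2286 of 2.19 and 2.46, bta-miR-2288 of 1.96 and 1.20, and bta-miR-940 of 1.39 and 1.91. Over the 4 groups the ratio of bta-miR-423-5p was lowest at 2.08, and each ratio is from 1 pair of arrays.

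The SD of bta-miR-1281 within groups, 0.18 on the log2 scale, ranked 3 from the smallest among the 91 miRNAs, whose median was 0.66. Those of the other 4 ranked between 9 (bta-miR-940) and 21 (bta-miR-2286). Ranked 1 and 2 were bta-miR-1225-3p and bta-miR-2425*, which like bta-miR-1281 were dim, 4 and 2 from the dimmest. In high fat steers a median of 16.5 of the 20 spots of bta-miR-1281 were well above background, and at the lowest 7. The part of low signal in the small SD was not tested.

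The miRNAs most like each of the 5 were found by the SD of the log2 ratio of 2 miRNAs over the 32 arrays, which share their depth of signal. This SD holds the diet difference that chose the 5, so nearness to other miRNAs of small unscaled change was fixed by the choice and is given as a description. The SD of the log2 signal itself was 0.19 for bta-miR-1281, 0.47 for bta-miR-940, 0.56 for bta-miR-423-5p, 0.66 for bta-miR-2286 and 0.58 for bta-miR-2288. Nearest to bta-miR-1281 were bta-miR-2382* (SD 0.11), bta-miR-2425* (0.13) and bta-miR-1225-3p (0.17). Nearest to bta-miR-940 were bta-miR-1281 (0.35), bta-miR-2382* (0.37) and bta-miR-2425* (0.40). Bta-let-7b was the nearest to both bta-miR-423-5p (0.29) and bta-miR-2288 (0.33), which were 0.35 from each other, and bta-let-7c followed at 0.41 and 0.39. Bta-miR-2286 had bta-miR-2892 (0.39), bta-let-7c (0.42) and bta-miR-665 (0.45) as its nearest. Among the 5, bta-miR-2286 was 0.61 from bta-miR-423-5p, 0.60 from bta-miR-2288 and 0.70 from bta-miR-1281, while bta-miR-1281 was 0.53 from bta-miR-423-5p and 0.57 from bta-miR-2288. The let-7 miRNAs are abundant in adult tissues, where they hold back growth-promoting genes.

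The depots were not part of the choice, so their differences were tested with limma and Benjamini-Hochberg adjustment over all miRNAs fitted. On the percentile scale, with values under a common floor set to it, 2 of the 5 were called in control steers, both higher in visceral fat, beside 18.9% of the 233 miRNAs tested and 6.87% called higher. Bta-miR-423-5p was higher in visceral fat by 0.83 (standard error 0.20, adjusted p = 0.0040), in 7 of 8 steers. Bta-miR-2288 was higher by 0.68 (standard error 0.17, adjusted p = 0.0065), likewise in 7 of 8 steers. The differences of the others were 0.46 for bta-miR-1281, 0.46 for bta-miR-940 and -0.37 for bta-miR-2286, with limma adjusted p from 0.21 to 0.27.

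On the high fat diet 1 of the 5 was called on this scale, beside 26.2% of all tested and 11.6% called higher. Bta-miR-1281 was higher in visceral fat by 0.94 (standard error 0.24, limma adjusted p = 0.0044), in 7 of 8 steers. Bta-miR-423-5p differed by 0.35, bta-miR-940 by 0.21, bta-miR-2288 by 0.15 and bta-miR-2286 by -0.03, with limma adjusted p from 0.21 to 0.97. Bta-miR-940 was at the floor on all 8 subcutaneous and 4 visceral arrays and bta-miR-1281 on 2 subcutaneous arrays, so the value of bta-miR-940 says little. With the floor at an intensity of 1, under which none of the 5 fell, bta-miR-940 was higher in visceral fat by 0.93 (limma adjusted p = 0.017) and bta-miR-1281 by 0.96 (limma adjusted p = 0.0052).

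None of these calls held on the unscaled or the spike-in scale. With unscaled signal 0 of the 5 were called in control steers, beside 11.2% of 240 tested, and limma's unadjusted p was below 0.05 for bta-miR-2286 alone (-0.75, adjusted p = 0.061). On the high fat diet 2 were called and both were lower in visceral fat, where 55.4% of all tested were called and 55.0% were called lower. Bta-miR-2286 differed by -0.90 (limma adjusted p = 0.0049) and bta-miR-2288 by -0.71 (limma adjusted p = 0.016), and each was lower in visceral fat in 7 of 8 steers. With spike-in scaling 0 were called in control steers, beside 5.0%, and 0 in high fat steers, beside 37.9%. Bta-miR-1281 had a limma adjusted p of 0.052 in high fat steers there, and the unadjusted p was below 0.05 for bta-miR-423-5p and bta-miR-2286 in control steers and for bta-miR-1281 and bta-miR-2286 in high fat steers.

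The scaling factors themselves differed between depots. The 75th percentile was lower in visceral fat by a log2 difference of -0.38 in control steers and -0.87 in high fat steers, and the spike-in factor by -0.15 and -0.35. Bta-miR-2288 in high fat steers was 0.15 on the percentile scale, -0.36 with the spike-ins and -0.71 unscaled, and the median of bta-miR-1281 was 17.1 in subcutaneous and 18.8 in visceral fat unscaled. The summed leukocyte markers were also lower in visceral fat in high fat steers, 141 to 409 against 334 to 1228. Their part in the depot differences was not tested.

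Of the 5, the largest unscaled depot difference in control steers was that of bta-miR-2286. It was negative, and lower in visceral fat in 7 of 8 steers on each diet, with intensities of 8.75 to 27.7 in visceral and 14.0 to 51.8 in subcutaneous fat in control steers. Its brighter probe had a mean log2 intensity of 4.78 in subcutaneous and 4.17 in visceral fat in control steers and of 4.71 and 3.82 in high fat steers. The levels of bta-miR-2286 ran in the order control subcutaneous, high fat subcutaneous, control visceral and high fat visceral by their unscaled medians, and each neighboring pair overlapped.

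**Figure D5:**
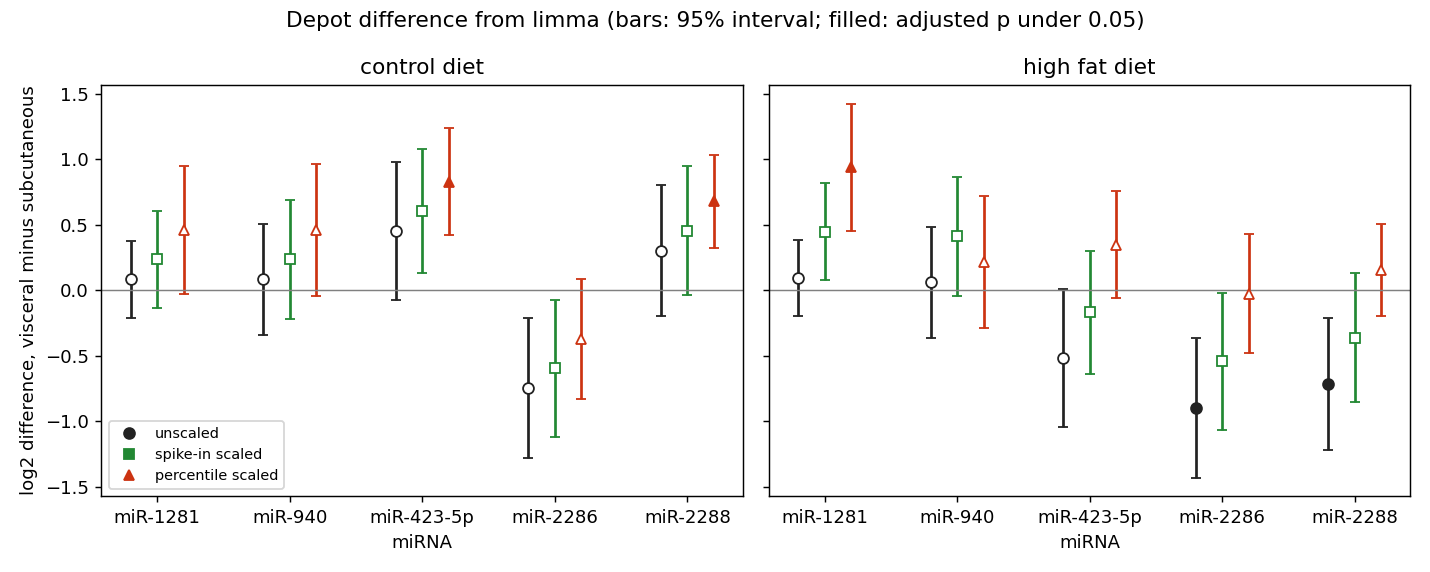
Log2 difference between depots (visceral minus subcutaneous) of the 5 miRNAs on each diet and on 3 scales, from limma with 95% intervals (filled symbols, adjusted p under 0.05 over all miRNAs tested). Bta-miR-423-5p and bta-miR-2288 are filled on the percentile scale in control steers, bta-miR-1281 on that scale in high fat steers, and bta-miR-2286 and bta-miR-2288 on the unscaled values in high fat steers.

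Without the 3 high fat visceral arrays of lowest dmr_31a signal described above, 0 of the 5 were called between depots in high fat steers, with bta-miR-1281 at 0.67 on the percentile scale (limma adjusted p = 0.081) and bta-miR-2286 at -0.55 unscaled (limma adjusted p = 0.11). Bta-miR-2288 unscaled was then at -0.34 (limma adjusted p = 0.33). On the control diet the unscaled fit of the remaining arrays called bta-miR-2286 (-0.75, limma adjusted p = 0.027). Leaving out the subcutaneous array of control steer 108 left 2 of the 5 called in control steers and 1 in high fat steers. Groups that lost arrays were smaller in these fits, and the share of all miRNAs called in them is not given. These counts are thus not read as results about the 5.

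Whether the depot difference depended on diet was fitted as an interaction in the same fits. The interaction is also the visceral minus the subcutaneous diet difference. The choice of the 5 used the diet differences, so these tests are not independent of it and their counts support no conclusion. It was called for 0 of the 5 on the percentile scale, beside 1.72% of all tested, for 0 unscaled, beside 11.2%, and for 0 with spike-in scaling, beside 5.42%. The nearest was bta-miR-2288 unscaled, whose depot difference was lower in high fat steers by a log2 difference of -1.02 (95% interval -1.73 to -0.31, limma adjusted p = 0.053), followed by bta-miR-423-5p at -0.97 (-1.72 to -0.23, limma adjusted p = 0.080). The unadjusted p was below 0.05 for bta-miR-2288 on all 3 scales and for bta-miR-423-5p on the unscaled and spike-in scales. Without the 3 high fat visceral arrays of lowest dmr_31a signal, the unscaled interaction of bta-miR-2288 was -0.64 (limma adjusted p = 0.36). That of bta-miR-423-5p was then -0.55 (limma adjusted p = 0.53). The intervals of bta-miR-1281 were -0.40 to 0.42 unscaled and -0.21 to 1.17 on the percentile scale.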

How the data were processed

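The labels give diet, depot and steer of each sample. The authors scanned 1 array per sample and, per the file headers, extracted it with Feature Extraction 10.7.3.1. They deposited background-subtracted intensities, for each spot, each probe and, summed over probes, each miRNA, unscaled between arrays, with 0.1 for a miRNA not detected, and flags for detection, saturation (0 spots) and outliers (3.30% of spots). The authors also deposited log2 values normalized in GeneSpring. That table numbers its features, and all 244 with a value above 0 matched 1 miRNA by value within 0.001. On 18 arrays the log2 intensity had been shifted, by up to 5.05. GeneSpring's further settings are not given in the sources used here.

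Intensities were used unscaled, divided by the geometric mean of dmr_285 and dmr_31a, or divided by each array's 75th percentile, taken over the 91 miRNAs that all 32 arrays detected. For tests, scaled values under a floor shared by all arrays were raised to it (log2 -7.22, from the lowest detected value of each array and the median of these). The diet description needed no floor. MiRNAs detected on at least 8 arrays (233 or 240) were fitted with limma 3.58.1 in R 4.3, with 4 groups in 1 fit and two-sided moderated tests at a Benjamini-Hochberg adjusted p under 0.05. The fit was tested on simulated data. Arrays of a steer come from 1 animal, and the steer as a replicate block was an alternative. Over the 16 steers, the deviations of the 2 arrays of a steer had a median correlation of -0.20 (range -0.72 to 0.65).

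The 5 miRNAs and all lists were chosen with earlier results of these data known. Named besides them are the spike-ins, for each the 3 miRNAs with the smallest SD of the log2 ratio, the 2 other miRNAs with the smallest absolute unscaled diet difference, other arms, and markers. The 7 lowest diet differences, the miRNAs beside them and bta-let-7b were named after their values were seen. Of the marker lists, the erythrocyte sum was 22.7 to 65.9 for control steers and 50.9 to 298 for high fat steers. Within it, bta-miR-486 had medians of 34.8 (control) and 43.7 (high fat) in subcutaneous fat. In visceral fat its medians were 41.0 and 40.7. Bta-miR-144 was detected on 1 high fat subcutaneous array alone. The kidney sum was 0 for control and 11.2 to 77.1 for high fat steers, and liver bta-miR-122 was detected on 3 arrays. Mature sequences and genome positions were not analysed here. Precision is limited by the 8 steers of a group and, for bta-miR-940, by its nearness to the lowest detected intensity. Bta-miR-2286 also came near that intensity, down to 1.71 times it in control and 2.10 times in high fat steers. Its medians were 8.10 and 8.26 times, and its error reached 31.3% in high fat steers.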

Additional observations from a re-analysis of the deposited data

Results flagged for a closer look

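Of 60 sets of 8 arrays (5 miRNAs, 4 groups, 3 scales), 7 held an end array whose gap to its neighbor took a larger share of the whole range than Dixon's critical value for 8 samples. Chance marks about 1 in 20 such sets. High fat steer 302 was the end array in 3 of them in visceral fat. It was the highest for bta-miR-940 unscaled (intensity 9.23, gap 0.532 of the range), the highest for bta-miR-2288 with spike-in scaling (0.570) and the lowest for bta-miR-1281 on the percentile scale (0.548), on the brightest array of its group. Control steer 410 was the lowest in visceral fat for bta-miR-1281 (0.556) and bta-miR-940 (0.620) on the percentile scale. Bta-miR-2286 was lowest in control visceral fat for steer 307 unscaled (intensity 8.75, gap 0.555) and highest in high fat subcutaneous fat for steer 411 with spike-in scaling (0.642). None of these was tested further.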

How the results depend on the processing

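Between depots, the numbers of the 5 miRNAs called, 2 for control steers and 1 for high fat steers, changed with the scaling. For control steers the number was 0 with no scaling (with or without the replicate block, or with all probes summed), with spike-in scaling (with or without the block), with the 75th percentile over all miRNAs of the array, with the deposited table and with Bonferroni correction of the methods' t-test. It was 3 with single spots, which added bta-miR-2286 (-0.63, limma adjusted p = 0.040), and 1 with normexp, with the methods' t-test and Benjamini-Hochberg adjustment, and with no scaling without the high fat visceral arrays of steers 303, 411 and 412. For high fat steers it was 0 with spike-in scaling (with or without the block), with the percentile over all miRNAs and with the deposited table. It was also 0 with the Bonferroni correction and without those 3 arrays (percentile scale or unscaled). It was 2 with no scaling (also with the block or all probes summed), with single spots and with a floor at 1, and 5 with normexp. With no scaling, 55.4% of all 240 miRNAs tested were called as well. Apart from unscaled and spike-in scaled values, the share over all miRNAs is not given for these alternatives. Their counts, on either diet, are thus not read as results about the 5. The interaction was called for 0 of the 5 under every alternative in which it was fitted, which leaves out the methods' t-test. As the choice of the 5 bears on the interaction, this count supports no conclusion.

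The pairing by steer, as a replicate block, changed no call of the percentile scale (limma adjusted p = 0.0056 for bta-miR-423-5p, 0.021 for bta-miR-2288 and 0.014 for bta-miR-1281) and none of the unscaled or spike-in values.

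Some depot differences turned sign. For bta-miR-2286 the difference became 0.059 in control steers with normexp. In high fat steers it became 0.16 with the median over the 91 miRNAs, 0.012 with quantile normalization and 0.068 with single spots. It also became 0.62 with normexp, 0.045 with the deposited table and 0.035 without the 3 high fat visceral arrays named above. For bta-miR-423-5p in high fat steers it became -0.52 unscaled (also with the block or all probes summed) and -0.17 with the spike-ins (also with the block). Without those 3 arrays it was -0.10 unscaled. For bta-miR-2288 in high fat steers it became -0.71 unscaled (also with the block) and -0.64 with all probes summed. It became -0.36 with the spike-ins (also with the block) and -0.095 with scaling to bta-miR-181a. Without those 3 arrays it was -0.34 unscaled. The interaction of bta-miR-2286 became -0.15 unscaled (also with the block) and -0.33 with all probes summed. That of bta-miR-940 became 0.17 with the spike-ins (also with the block), 0.075 with quantile normalization, 0.33 with bta-miR-181a, 0.51 with single spots, 0.53 with normexp and 0.47 with a floor at 1, and that of bta-miR-2288 became 0.26 with normexp. None of these interactions was called, and the cause of the turns was not tested.

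The median diet difference of the 5 was -0.13 in subcutaneous and -0.61 in visceral fat unscaled. With other scalings it was, in the same order, 0.12 and -0.16 (spike-ins), -3.05 and -3.04 (75th percentile), -2.83 and -2.74 (median), -3.01 and -2.92 (quantile), -7.00 and -7.22 (75th percentile over all miRNAs), -4.16 and -3.73 (deposited), -1.04 and -1.16 (bta-miR-181a), -3.05 and -2.94 (single spots), -2.45 and -1.94 (normexp), and -2.84 and -2.91 (all probes summed, 75th percentile). With dmr_31a alone it was 0.16 in visceral fat, and without the 3 high fat visceral arrays -0.40 unscaled. Between the unscaled, spike-in and 75th percentile values the shift is that of the factors given above. Why the factors differed, and the cause of the other changes, was not tested.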
